A study of Homo sapiens with 12 samples.

Results

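The 47 genes described here are the ligands, extracellular regulators, receptors, SMAD proteins, intracellular inhibitors and ID targets of TGF-beta and bone morphogenetic protein (BMP) signalling. They were chosen by name, with earlier results of these data known. Each was represented by the probe set that carried its symbol alone and had the highest mean signal over the 12 arrays. This rule gave a value to 44 of the 47 genes, out of 33616 gene symbols on the array. TGFB2 and FSTL1 were represented only by probe sets shared with another gene and BMPR1A by none, so these 3 genes were not measured here. RNA came from MIO-M1, a human retinal line of Müller glia, the main glial cell of the retina, grown in bulk culture. One selected clone that carried the pCMV-Tet3G transactivator plasmid was further transfected with a Tet-responsive minigene of DMPK, the gene whose CTG repeat is expanded in myotonic dystrophy type 1. The minigene spanned exons 11 to 15 and held no CTG repeat in MIO-M1-CTG(0) cells or 648 repeats in MIO-M1-CTG(648) cells. Both lines were selected in geneticin and puromycin and then cultured in tetracycline-free serum. Arrays were run on cells left non-induced and on cells given 1 μg/mL doxycycline (Dox) for 8 days. Each of the 4 groups had 3 arrays of separate cultures, while each repeat length was represented by 1 cell line, so that repeat length and line cannot be told apart when the lines are compared. The p-values below therefore measure the spread between cultures of these 2 lines.

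TGF-beta ligands are secreted in a latent form, held in the matrix by latent TGF-beta binding proteins (LTBPs), and once released they signal through TGFBR1 and TGFBR2 to SMAD2 and SMAD3. BMPs signal through other type I and type II receptors to SMAD1, SMAD5 and SMAD9, and both branches share SMAD4. SMAD6, SMAD7, the SMURF ubiquitin ligases, SKI and SKIL restrain the response, and the ID genes are classic direct targets of BMP signalling. In retinal glia the pathway is known for its part in gliosis and matrix production.

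Signals are given on the log2 scale as deposited, where a difference of 1 is a doubling. Levels of different genes cannot be compared, because probes differ in brightness. Array medians lay between 4.24 and 4.32. Of the 44 members, 36 reached a group mean of at least 5, and LTBP2, BMP5, BMP7, GDF5, GDF15, INHBB, GREM1 and CHRD did not in any group and are close to background. The first principal component, with 41.8% of the variance, separated the lines. Müller glia markers were only partly present. Of 14, 10 reached a group mean of 5, among them GLUL, VIM and SOX9, whereas RLBP1, KCNJ10, AQP4 and GFAP stayed below it in all groups. DMPK itself stood at 7.90, 7.73 and 8.22 in non-induced CTG(0) cells and 8.50, 8.63 and 8.49 with Dox. It stood at 10.32, 10.00 and 10.24 in non-induced CTG(648) cells and 9.78, 9.82 and 9.55 with Dox. DMPK signal was thus higher in CTG(648) cells but was not higher with Dox there (log2 fold change -0.47, SE 0.16, adjusted p = 0.269), so the array values do not show induction in the cells labelled Dox-induced CTG(648). In CTG(0) cells it was higher with Dox by 0.59 (SE 0.16, adjusted p = 0.347), past the threshold used below with an unadjusted limma p of 0.00268. The interaction of line and Dox for DMPK, -1.06 (SE 0.23, adjusted p = 0.0688), was past it too, with an unadjusted limma p of 4.13e-04. The array value does not separate the minigene from the cell's own DMPK. By RT-PCR with a minigene-specific primer, the paper reported minigene RNA in both lines after a shorter Dox exposure. It detected none without Dox. By RT-qPCR the paper found comparable DMPK levels in the induced lines. In CTG(648) cells given Dox it also reported nuclear foci of the repeat RNA and altered splicing of MBNL1 and MBNL2.

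Contrast A asked what Dox changed in the cells with the expanded repeat. From its own contrast A the paper removed genes changed by Dox in CTG(0) cells. From its contrast B, between the lines with Dox, it removed genes that differed between the non-induced lines. Counts given here are before any removal. The paper's lists of genes shared by its contrasts A and B do not hold TGFB1, TGFB3 or NOG. The ligand genes TGFB1, TGFB3 and BMP6 fell and NOG, which encodes a secreted BMP antagonist, rose. Past the threshold, set at a log2 difference of more than 0.5 in either direction and an unadjusted limma p under 0.005, were 5 of the 44 members (TGFB1, TGFB3 and BMP6 lower, NOG and SMAD9 higher). Among all 36176 probe sets with 1 symbol, 2.42% were past it (1.28% higher and 1.14% lower), and 3.67% of those with a group mean of at least 5. After Benjamini-Hochberg adjustment over all these probe sets, BMP6, TGFB1 and NOG also had values under 0.05, against 0.65% of the probe sets. The median log2 fold change of the members was 0.03 and that of all probe sets 0.01. With Dox in CTG(0) cells 0 of 44 members passed limma's threshold, against 1.18% of all probe sets. There 5 members had an unadjusted p under 0.05 (TGFB1, TGFB3, BMP4, BMP6 and TGFBR3), all with higher values, against 8.39% of all probe sets. By the unpaired 2-group test that the methods name, 1 member, TGFBR3, had a p under 0.05 with a log2 fold change above 0.5. The interaction, that is the Dox effect in CTG(648) cells minus that in CTG(0) cells, passed the threshold for the 5 members named in contrast A, against 2.32% of all probe sets (1.1% higher and 1.22% lower). Contrast A and the interaction share the 6 CTG(648) arrays and are not independent.

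**Figure D1:**
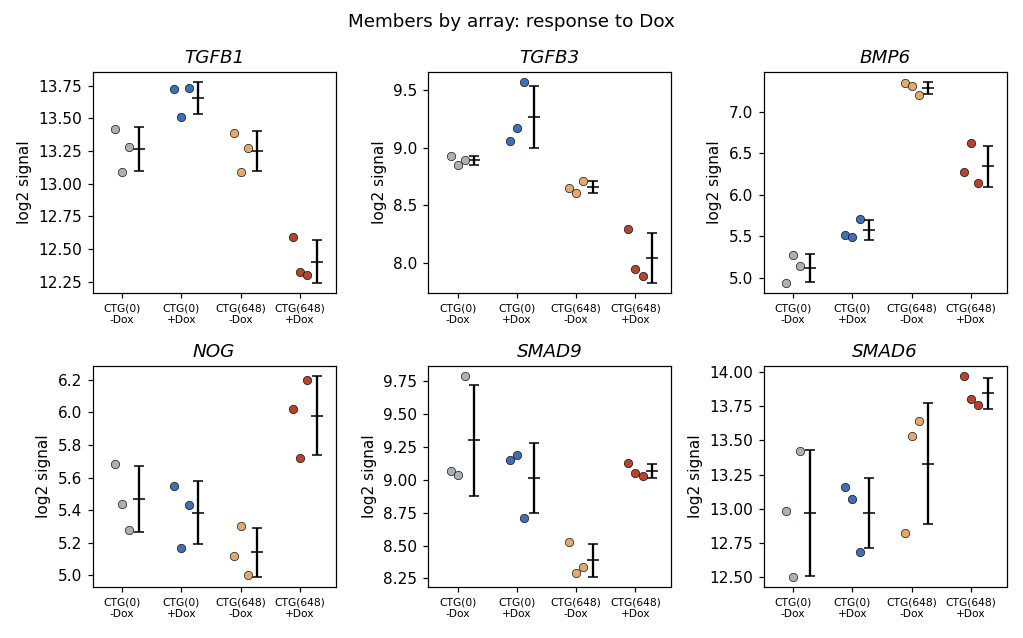
Log2 signal of 6 members on each of the 12 arrays, with the group means and SD (bars, n = 3) beside the points. In Dox-induced CTG(648) cells TGFB1 and TGFB3 lie below every other array, and NOG and SMAD6 lie above every other array.

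TGFB1, the most widely expressed TGF-beta ligand (chr19:41330323-41353922, GRCh38.p14), measured 13.39, 13.09 and 13.27 in non-induced CTG(648) cells and 12.59, 12.32 and 12.30 after Dox. In CTG(0) cells it measured 13.42, 13.09 and 13.28 without Dox and 13.72, 13.51 and 13.73 with it. The non-induced lines overlapped, and the groups with Dox lay on opposite sides of them. TGFB1 fell by 0.85 in contrast A (SE 0.15, adjusted p = 0.0211), its CTG(0) value with Dox differed by 0.39 (SE 0.15, adjusted p = 0.518), and the interaction was -1.24 (SE 0.21, adjusted p = 0.0213).

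TGFB3, a second ligand of the same receptors (chr14:75958097-75983011), measured 8.65, 8.61 and 8.71 in non-induced CTG(648) cells and 8.29, 7.95 and 7.89 after Dox. In CTG(0) cells the arrays read 8.93, 8.85 and 8.89 without Dox and 9.06, 9.17 and 9.57 with it. Both pairs of groups were free of overlap and had differences of opposite sign, of which the one in CTG(0) cells did not pass the threshold. The log2 fold change was -0.61 in contrast A (SE 0.16, adjusted p = 0.135) and 0.38 in CTG(0) cells (adjusted p = 0.555), and the interaction was -0.99 (SE 0.23, adjusted p = 0.0994). The contrast A call was lost without any one of the 3 non-induced CTG(648) arrays or without replicate 2 or 3 of the Dox-induced ones, with values from -0.64 to -0.54 and unadjusted limma p from 0.00526 to 0.0124, as for each array left out below.

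BMP6, a BMP ligand (chr6:7726099-7881728), measured 7.34, 7.31 and 7.20 in non-induced CTG(648) cells and 6.27, 6.62 and 6.14 after Dox. Its CTG(0) values were 4.94, 5.28 and 5.14 without Dox and 5.52, 5.49 and 5.71 with it. Dox brought the CTG(648) arrays closer to the CTG(0) arrays without reaching them. BMP6 fell by 0.94 in contrast A (SE 0.16, adjusted p = 0.0131), and the interaction was -1.39 (SE 0.22, adjusted p = 0.0145), the most negative value of the 44 members. Its CTG(0) value with Dox differed by 0.45 (SE 0.16, adjusted p = 0.466), measured close to the level of dim probe sets.

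The promoters of these 3 ligand genes are shown because the genes moved together with Dox in CTG(648) cells, and those of SMAD7 and ID1 because they are textbook targets of SMAD proteins and were lower in CTG(648) than in CTG(0) cells. Each line gives the 150 bases before the gene's first listed RefSeq start in GRCh38.p14, 5′ to 3′ on the gene's strand. Capitals mark CAGAC or its reverse complement, letters that contain the core bound by SMAD3 and SMAD4.
TGFB1: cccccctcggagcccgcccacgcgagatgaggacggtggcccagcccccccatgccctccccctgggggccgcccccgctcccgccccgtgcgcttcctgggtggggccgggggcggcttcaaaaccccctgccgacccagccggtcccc
TGFB3: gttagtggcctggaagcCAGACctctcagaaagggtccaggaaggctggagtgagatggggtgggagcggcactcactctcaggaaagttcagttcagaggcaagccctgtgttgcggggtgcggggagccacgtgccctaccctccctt
BMP6: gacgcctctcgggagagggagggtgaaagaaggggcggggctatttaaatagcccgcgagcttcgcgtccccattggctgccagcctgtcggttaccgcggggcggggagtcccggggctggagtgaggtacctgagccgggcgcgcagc
SMAD7: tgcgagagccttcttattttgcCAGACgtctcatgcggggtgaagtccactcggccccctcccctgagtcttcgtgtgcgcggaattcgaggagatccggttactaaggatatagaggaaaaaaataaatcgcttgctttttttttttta
ID1: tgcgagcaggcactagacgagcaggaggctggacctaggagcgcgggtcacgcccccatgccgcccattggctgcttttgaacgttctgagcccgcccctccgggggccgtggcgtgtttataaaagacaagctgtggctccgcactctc

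The windows lie at chr19:41353923-41354072, minus strand, for TGFB1; chr14:75983012-75983161, minus strand, for TGFB3; chr6:7725949-7726098, plus strand, for BMP6; chr18:48950966-48951115, minus strand, for SMAD7; and chr20:31605139-31605288, plus strand, for ID1. CAGAC began 133 bases before the TGFB3 start and 128 bases before the SMAD7 start, and the TGFB1, BMP6 and ID1 windows held none. Over the 250 bases before the start, CAGAC on either strand was found in 16 of the 42 members in the promoter table (38.1%) and in 37.8% of 27305 genes. The palindrome GGCGCC, letters of the BMP-responsive type of SMAD site, was found in 13 of 42 (31%) and in 16.1% of all genes, and in none of the 5 windows shown. It holds only G and C, and the shares were not matched for the promoters' content of these bases. The motifs share no overlapping letters in these windows. A match describes letters and is no evidence of binding, and no match says only that these letters are not in the window.

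Of the other latency and matrix genes in this role group, none passed the threshold in contrast A. LTBP1, which tethers latent TGF-beta to the matrix, had a log2 fold change of -0.40 and TGFBI, a secreted matrix protein named for its induction by TGF-beta, one of -0.29, with adjusted p of 0.464 and 0.422 in limma. LTBP2, LTBP3 and LTBP4 stayed within 0.20 of no change. The group's median was -0.29, and 2 of its 7 measured genes were past the threshold, both lower. Of all probe sets 1.14% were past it and lower. Among the 10 BMP, GDF and activin ligands, BMP6 alone was past it, and the group ranged from -0.94 to 0.22 with a median of -0.12. BMP2 had an interaction of -0.66 (adjusted p = 0.405), and BMP4 one of -1.20 (adjusted p = 0.371).

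NOG encodes noggin, which binds BMPs outside the cell and keeps them from their receptors (chr17:56593699-56595611). It measured 5.12, 5.30 and 5.00 in non-induced CTG(648) cells and 6.02, 5.72 and 6.20 after Dox. In CTG(0) cells it measured 5.68, 5.44 and 5.28 without Dox and 5.55, 5.17 and 5.43 with it. The Dox-induced CTG(648) arrays stood above the other 9, although the highest CTG(0) array came within 0.1 of the lowest of them. NOG rose by 0.84 in contrast A (SE 0.17, adjusted p = 0.0476), and the interaction was 0.92 (SE 0.24, adjusted p = 0.157). The interaction call was lost on leaving out any one of 6 arrays (replicate 1 of non-induced CTG(0), replicate 2 of Dox-induced CTG(0), and replicates 1 and 3 of both CTG(648) groups), with p from 0.00513 to 0.00757. FST, which encodes the activin antagonist follistatin, had a log2 fold change of -0.50 (adjusted p = 0.404). GREM1 and CHRD, 2 further BMP antagonists, were close to background.

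No receptor passed the threshold with Dox in either line. The 7 measured receptors ranged from -0.12 to 0.61 in CTG(648) cells, with a median of 0.13, and from -0.05 to 0.70 in CTG(0) cells. TGFBR3, or betaglycan, a coreceptor that presents ligands to the signalling receptors, had the highest log2 fold change in both lines. It measured 7.22, 7.44 and 7.22 and then 7.53, 7.71 and 8.46 with Dox in CTG(648) cells, and 7.09, 6.58 and 7.19 and then 7.53, 7.59 and 7.85 in CTG(0) cells. In both lines the arrays with Dox lay above those without (log2 fold changes 0.61 with adjusted p = 0.343 and 0.70 with adjusted p = 0.444 in limma). This gene was singled out after its values were seen.

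SMAD9, a BMP-branch SMAD (chr13:36844831-36920854), measured 8.53, 8.29 and 8.34 in non-induced CTG(648) cells and 9.13, 9.05 and 9.03 after Dox. Its CTG(0) values were 9.07, 9.04 and 9.79 without Dox and 9.15, 9.19 and 8.71 with it. The non-induced CTG(648) arrays were the lowest of the 12, and those with Dox fell inside the CTG(0) range. The value rose by 0.68 in contrast A (SE 0.20, adjusted p = 0.197), at the edge of the threshold with an unadjusted limma p of 0.00497. The interaction was 0.97 (SE 0.29, adjusted p = 0.215). Both calls were lost when the variance prior was taken over all probe sets of the array (unadjusted limma p of 0.0078 and 0.00779), and each when any one of 9 arrays was left out. For contrast A these were the 6 CTG(648) arrays, replicate 1 of non-induced CTG(0) and replicates 1 and 2 of Dox-induced CTG(0) (p from 0.00519 to 0.0185). For the interaction they were the 6 CTG(648) arrays, replicate 3 of non-induced CTG(0) and replicates 1 and 3 of Dox-induced CTG(0) (p from 0.00574 to 0.015). Among the other 5 signalling SMADs none passed, and their values in contrast A lay between -0.09 and 0.34. SMAD3, of the TGF-beta branch, had 0.34 (adjusted p = 0.408) and the shared SMAD4 0.32 (adjusted p = 0.349).

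None of the 6 intracellular inhibitors passed the threshold in contrast A. Their log2 fold changes lay between -0.22 and 0.51, with a median of 0.33, and 5 of 6 were above 0. SMAD6, an inhibitor of the BMP branch, had 0.51 (adjusted p = 0.496) and SMURF2, a ubiquitin ligase, 0.31 (adjusted p = 0.441). The 4 ID genes, which encode inhibitors of bHLH transcription factors, lay between -0.08 and 0.20 in CTG(648) cells and between -0.22 and 0.21 in CTG(0) cells, and none passed in either. For ID1 the 95% interval of the Dox effect in CTG(648) cells was -0.26 to 0.40.

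**Figure D2:**
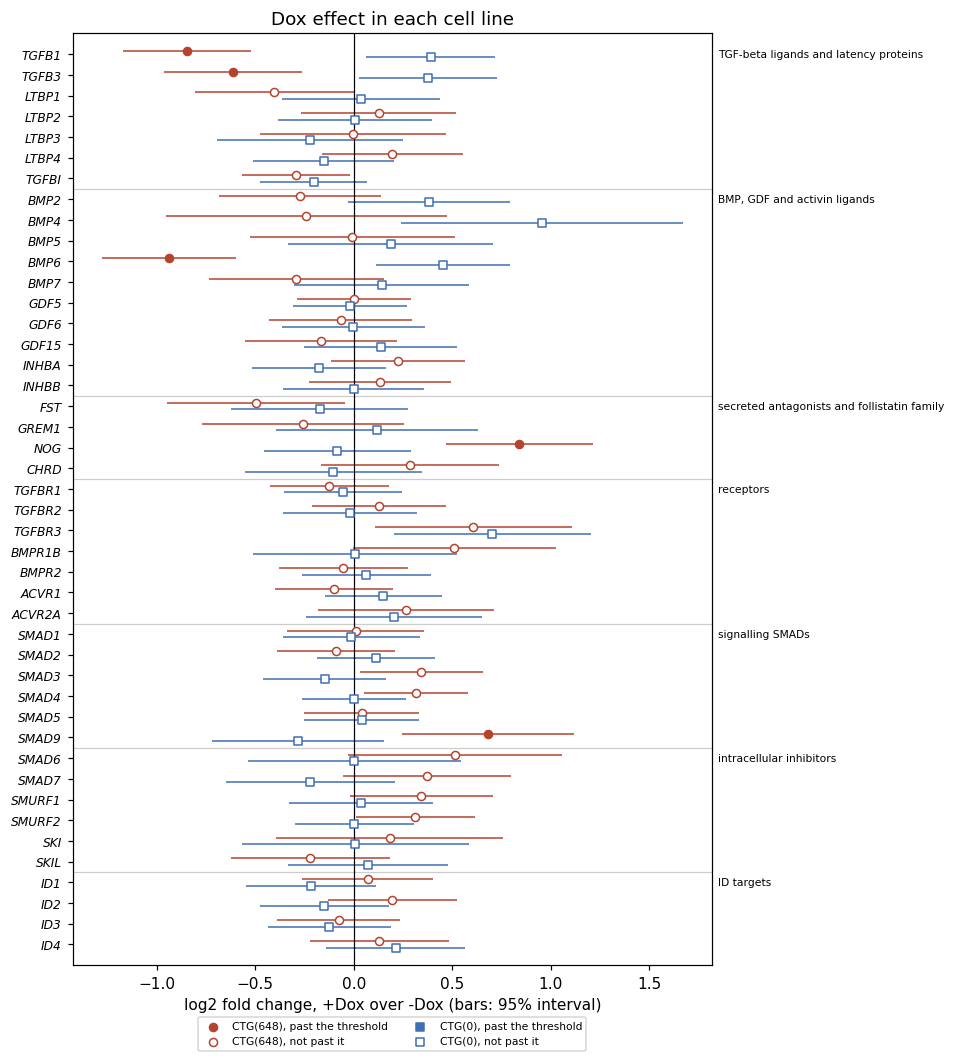
Log2 fold change with Dox of the 44 measured members in CTG(648) cells (circles) and CTG(0) cells (squares), by role, with 95% intervals from limma and filled symbols past the threshold. The 5 filled circles are TGFB1, TGFB3, BMP6, NOG and SMAD9, and no square is filled.

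The fall of the ligand genes stood beside a fall of genes from a list of fibroblast and pericyte markers. Of its 10 genes 4 were past the threshold in contrast A, all lower (PDGFRA, PDGFRB, ACTA2 and COL1A1, with log2 fold changes from -1.05 to -0.88), against 1.14% lower among all probe sets. Among 6 other marker lists read in the same way, 2 of 14 Müller glia markers were higher (SLC1A3 by 0.71 and EGFR by 0.55), TYRP1 was lower among 6 markers of retinal pigment epithelium (-0.87), and those of endothelium, epithelium, immune cells and neurons held none past the threshold. With Dox in CTG(0) cells no marker of the 7 lists passed it. The mean log2 signal of the list ran from 10.67 to 10.96 in non-induced CTG(648) cells and from 9.97 to 10.20 with Dox, against 11.63 to 11.83 and 11.69 to 12.10 in CTG(0) cells. One marker of the list, CSPG4, stayed below 5 in all groups. In bulk RNA a smaller share of cells of one kind cannot be told apart from less RNA per cell, and the part of these genes in the members' values was not tested.

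The lines differed in more members than Dox changed. Without Dox, 11 of 44 members were past the threshold between the lines, 4 higher and 7 lower in CTG(648) cells, against 11.7% of all probe sets (5.63% higher and 6.11% lower) and 20.1% of those with a group mean of at least 5. With Dox, in contrast B, 14 members were past it, 5 higher and 9 lower, also against 11.7% of all probe sets (6.34% higher and 5.33% lower) and 19.5% of the brighter ones. The members' median difference was -0.18 without Dox and -0.03 with it, and the medians over all probe sets were 0.00 and 0.01. Of the 14 members in contrast B, 6 (LTBP3, BMP4, BMP6, TGFBR1, SMAD7 and ID1) were past the threshold without Dox too. The other 8 (TGFB1, TGFB3, LTBP1, TGFBI, BMP2, NOG, SMAD6 and SKIL) were not. Contrasts A and B share the Dox-induced CTG(648) arrays, and the difference without Dox shares its CTG(648) arrays with contrast A. Cell type markers differed between the lines as well. Of the 14 Müller glia markers 5 were higher in CTG(648) cells and 1 lower in each state, with CRYAB higher by 4.95 without Dox and 5.02 with it and SLC1A3 lower with differences of -1.92 and -1.77. Of the 10 fibroblast and pericyte markers 1 was higher and 4 lower without Dox, and 1 higher and 6 lower with it, with LUM at -7.04 and -8.41 and ACTA2 at -2.04 and -3.09. The part of these markers in the members' differences was not tested.

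**Figure D3:**
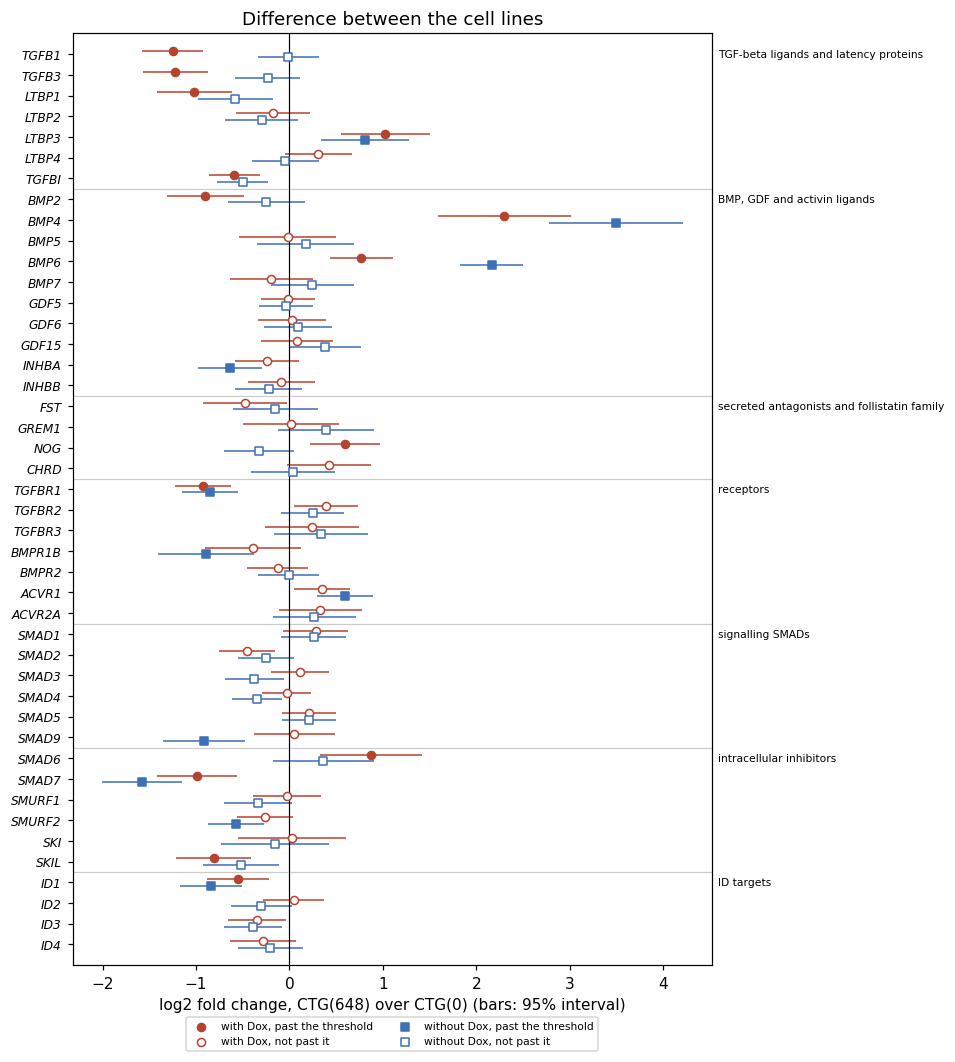
Log2 fold change of CTG(648) over CTG(0) cells for the 44 measured members with Dox (circles) and without (squares), by role, with 95% intervals from limma and filled symbols past the threshold. BMP4 lies farthest to the right at 3.50 without Dox and 2.30 with it, and SMAD7 farthest to the left without Dox at -1.58.

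Among the TGF-beta ligands and latency proteins, contrast B gave TGFB1 lower by a log2 difference of -1.25 (SE 0.15, adjusted p = 1.13e-04) and TGFB3 by -1.22 (SE 0.16, adjusted p = 2.19e-04), on the arrays given above. Without Dox the same genes differed by -0.01 and -0.23, not past the threshold. LTBP3, needed for the secretion of latent TGF-beta, went the other way. It measured 6.48, 6.22 and 5.95 in non-induced CTG(0) cells and 6.94, 6.78 and 7.35 in non-induced CTG(648) cells, and 6.04, 5.70 and 6.24 against 6.70, 7.01 and 7.35 with Dox. LTBP3 was higher in CTG(648) cells by 0.81 without Dox (SE 0.22, adjusted p = 0.0261) and 1.03 with it (SE 0.22, adjusted p = 0.00675). The call without Dox was lost when replicate 2 or 3 of CTG(0) or replicate 1 or 3 of CTG(648) was left out (values 0.64 to 0.85, p from 0.00579 to 0.0167). LTBP1 was lower with a difference of -1.02 with Dox (adjusted p = 0.00249), with -0.58 without it (adjusted p = 0.0594, not past the threshold). TGFBI was lower with a difference of -0.59 with Dox (adjusted p = 0.00695), and its difference without Dox, -0.50, stood exactly on the limit and was not counted. A dimmer second probe set of LTBP4 was higher by 0.81 without Dox (adjusted p = 0.0131), where the brighter one differed by -0.04.

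BMP4, a BMP ligand of eye and neural development (chr14:53949736-53956891), showed the greatest difference between the lines among the members. It measured 8.90, 7.85 and 9.29 in non-induced CTG(0) cells and 11.76, 12.43 and 12.34 in non-induced CTG(648) cells. With Dox the values were 9.80, 9.17 and 9.94 against 12.26, 11.67 and 11.88. Every CTG(648) array lay well above every CTG(0) array, and the CTG(0) arrays spread more widely (SD 0.74 without Dox) than the others. The difference was 3.50 without Dox (SE 0.33, adjusted p = 1.19e-05) and 2.30 with it (SE 0.33, adjusted p = 4.41e-04). The CTG(0) arrays with Dox overlapped those without (log2 fold change 0.96, adjusted p = 0.463).

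The difference in BMP6 shrank with Dox. The gene was higher in CTG(648) cells by 2.16 without Dox (SE 0.16, adjusted p = 1.07e-06) and by 0.77 with it (SE 0.16, adjusted p = 0.00529), which is the interaction given above. BMP2 measured 6.64, 6.82 and 6.73 in non-induced CTG(0) cells and 6.86, 6.97 and 7.51 with Dox, and 6.55, 6.60 and 6.30 and then 6.15, 6.50 and 5.98 in CTG(648) cells. In contrast B the CTG(648) arrays lay below those of CTG(0), with a difference of -0.90 (SE 0.19, adjusted p = 0.00644). INHBA, the activin A subunit, measured 9.90, 9.77 and 9.93 in non-induced CTG(0) cells and 8.98, 9.21 and 9.49 in non-induced CTG(648) cells. With Dox it measured 9.61, 9.56 and 9.90 against 9.53, 9.44 and 9.38. The groups were separate in both states, by a wider gap without Dox (-0.64, SE 0.16, adjusted p = 0.0159) than with it (-0.24, not past the threshold), and the difference between these values was not past the threshold (interaction 0.40). The call was lost without replicate 1 or 3 of non-induced CTG(0) or replicate 1 of non-induced CTG(648) (p from 0.00544 to 0.00801). The remaining ligands, BMP5, BMP7, GDF5, GDF6, GDF15 and INHBB, passed in neither comparison, and of these GDF6 alone reached a group mean of 5.

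NOG was higher in CTG(648) cells with Dox by 0.60 (SE 0.17, adjusted p = 0.0373) but not without it (-0.33). The contrast B call was lost with the variance prior over all probe sets (unadjusted limma p of 0.00809) and on leaving out any one of 7 arrays: replicate 2 of non-induced and replicates 2 and 3 of Dox-induced CTG(0), and replicates 1 and 3 of both CTG(648) groups (p from 0.00521 to 0.0246). The other antagonists, FST, GREM1 and CHRD, were past the threshold in neither comparison, and FST had -0.47 with Dox (adjusted p = 0.179).

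Of the receptors, TGFBR1, the type I receptor that phosphorylates SMAD2 and SMAD3 (chr9:99103647-99154192), was lower in CTG(648) cells in both states. It measured 13.97, 13.96 and 14.12 in non-induced CTG(0) cells and 13.25, 13.22 and 13.02 in non-induced CTG(648) cells, and 13.89, 13.86 and 14.14 against 13.15, 12.98 and 12.99 with Dox. The gap between the lines was several times the spread within them (-0.85 without Dox, SE 0.14, adjusted p = 0.00104, and -0.92 with it, SE 0.14, adjusted p = 6.16e-04). TGFBR2, the matching type II receptor, was not past the threshold (0.25 and 0.39). BMPR1B, a BMP type I receptor, measured 7.82, 7.97 and 8.12 in non-induced CTG(0) cells and 7.39, 6.64 and 7.20 in CTG(648) cells. With Dox it measured 8.18, 7.95 and 7.80 against 7.05, 7.84 and 7.87, where the groups overlapped. Its difference without Dox was -0.89 (SE 0.24, adjusted p = 0.0242) and was lost without replicate 2 or 3 of CTG(0) or replicate 2 of CTG(648) (p from 0.00754 to 0.0155). ACVR1, another BMP type I receptor, measured 9.78, 9.47 and 9.76 in non-induced CTG(0) cells and 10.16, 10.26 and 10.38 in CTG(648) cells. With Dox the values were 9.83, 9.80 and 9.83 against 10.27, 10.16 and 10.07. ACVR1 was higher by 0.60 without Dox (SE 0.14, adjusted p = 0.0107) and had 0.35 with it, not past the threshold. Without replicate 2 of non-induced CTG(0) cells the call was lost (0.50, unadjusted limma p of 0.00509). BMPR2, the BMP type II receptor, and ACVR2A, an activin type II receptor, were past the threshold in neither comparison.

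**Figure D4:**
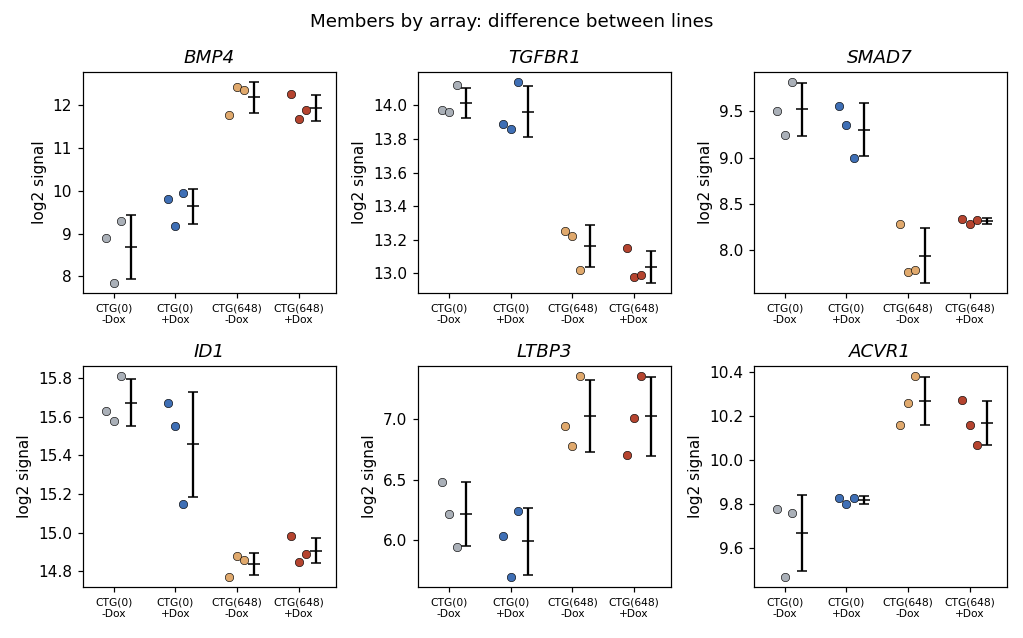
Log2 signal of 6 members on each of the 12 arrays, with group means and SD (bars, n = 3) beside the points. BMP4, LTBP3 and ACVR1 are higher and TGFBR1, SMAD7 and ID1 lower on all 6 CTG(648) arrays than on all 6 CTG(0) arrays.

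Among the signalling SMADs SMAD9 alone was past the threshold between the lines, lower in non-induced CTG(648) cells with a difference of -0.91 (SE 0.20, adjusted p = 0.0084), against 0.05 with Dox. SMAD3 and SMAD4 had -0.38 and -0.35 without Dox (adjusted p = 0.118 and 0.0859). SMAD2 had a difference of -0.46 with Dox (adjusted p = 0.0458), inside the fold limit. SMAD1 and SMAD5 lay between 0.21 and 0.28 in both comparisons.

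SMAD7, the inhibitory SMAD induced by TGF-beta that blocks its receptor (chr18:48919853-48950965), was lower in CTG(648) cells. It measured 9.51, 9.24 and 9.82 in non-induced CTG(0) cells and 8.28, 7.76 and 7.78 in non-induced CTG(648) cells, and 9.56, 9.35 and 9.00 against 8.34, 8.28 and 8.32 with Dox. No CTG(648) array reached the lowest CTG(0) array. The difference was -1.58 without Dox (SE 0.20, adjusted p = 1.26e-04) and -0.99 with it (SE 0.20, adjusted p = 0.00456). A second, dimmer SMAD7 probe set pointed the same way without passing the threshold (-0.92 and -0.50). SMURF2 measured 12.15, 12.14 and 12.35 in non-induced CTG(0) cells and 11.52, 11.69 and 11.71 in CTG(648) cells, lower with a difference of -0.57 (SE 0.14, adjusted p = 0.0143). With Dox its arrays read 12.34, 12.10 and 12.21 against 11.85, 11.91 and 12.10, a difference of -0.26. The SMURF2 call was lost without replicate 3 of non-induced CTG(0) or replicate 1 of non-induced CTG(648) (p from 0.00585 to 0.00586).

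SKIL, a SMAD corepressor, measured 11.14, 11.14 and 11.07 in Dox-induced CTG(0) cells and 10.07, 10.26 and 10.58 in Dox-induced CTG(648) cells, against 10.96, 10.94 and 11.23 and 10.92, 10.33 and 10.32 without Dox. It was lower with a difference of -0.81 with Dox (SE 0.19, adjusted p = 0.011), and the call was lost without replicate 1 of Dox-induced CTG(648) (-0.70, unadjusted limma p of 0.00531). SMAD6 was the 1 inhibitor that was higher. It measured 13.16, 13.07 and 12.68 in Dox-induced CTG(0) cells and 13.97, 13.80 and 13.76 in Dox-induced CTG(648) cells. Without Dox it measured 12.98, 12.50 and 13.42 against 12.82, 13.53 and 13.64, where the groups overlapped. Its difference with Dox was 0.87 (SE 0.25, adjusted p = 0.0362) and was lost with the prior over all probe sets (unadjusted limma p of 0.00537) and without any of the 6 arrays with Dox or replicate 1 of non-induced CTG(0) (p from 0.00526 to 0.0221). SMURF1 and SKI were past the threshold in neither comparison.

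ID1, the ID gene most used as a readout of BMP signalling (chr20:31605289-31606510), measured 15.63, 15.58 and 15.81 in non-induced CTG(0) cells and 14.77, 14.88 and 14.86 in non-induced CTG(648) cells. With Dox the arrays read 15.67, 15.55 and 15.15 against 14.98, 14.85 and 14.89. The lines did not overlap in either state. ID1 was lower with a difference of -0.84 without Dox (SE 0.15, adjusted p = 0.00238) and of -0.55 with it (SE 0.15, adjusted p = 0.0308). The second call was lost with the prior over all probe sets (unadjusted limma p of 0.00753) and without replicate 1 or 2 of Dox-induced CTG(0) or any Dox-induced CTG(648) array (values -0.59 to -0.44, p from 0.00629 to 0.0197). ID3 had differences of -0.39 and -0.34 (adjusted p = 0.103 and 0.156), and ID2 and ID4 were not past the threshold. After each line's mean was subtracted, ID1 had correlations of 0.88 with ID2, 0.83 with ID3 and 0.30 with ID4 over the 12 arrays. With SMAD6, SMAD7 and SKIL, ID1 had 0.59, 0.65 and -0.12, and for SMAD7 and SKIL it was 0.25. These are a description, since the genes share arrays and Dox state. Replicate 3 of Dox-induced CTG(0) was the lowest CTG(0) array for ID1 (15.15), ID2 (14.15) and ID3 (15.75). The correlations without that array were not computed. Over the 21 pairs of SMAD6, SMAD7, SKIL and the ID genes the correlations ran from -0.45 to 0.88.

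A wider list of 68 further genes of the pathway, of which 63 were measured, was read in the same way. In contrast A 5 of the 63 were past the threshold, 3 higher and 2 lower, against 2.42% of all probe sets and 3.67% of those with a group mean of at least 5. BAMBI, a pseudoreceptor that blocks TGF-beta and BMP receptors, measured 8.28, 8.38 and 8.37 in non-induced CTG(648) cells and 9.62, 9.44 and 9.52 with Dox, above all CTG(0) arrays, and rose by 1.18 (SE 0.22, adjusted p = 0.0302). The paper lists a smaller rise of BAMBI in its contrast A. KLF10, an early TGF-beta response gene, read 10.18, 10.99 and 10.73 and then 11.55, 11.53 and 11.53, a rise of 0.90 (SE 0.20, adjusted p = 0.0703). CHRDL1, a chordin-like BMP antagonist, fell by 0.73 (SE 0.14, adjusted p = 0.026), from 12.28, 12.29 and 12.26 to 11.63, 11.63 and 11.38. FBN2, a fibrillin of the matrix that holds latent ligands, rose by 0.66 (adjusted p = 0.111), and BMPER, a BMP-binding protein, fell by 0.74 (adjusted p = 0.143). FBN2 read 4.67, 4.70 and 4.76 without Dox and 5.50, 5.17 and 5.44 with it, close to background, and replicate 1 of non-induced CTG(0) read 5.15. The interaction was past the threshold for the same 5 genes, with BAMBI at 1.47, KLF10 at 1.34, BMPER at -1.23, FBN2 at 0.83 and CHRDL1 at -0.80 (adjusted p from 0.0659 to 0.182). In CTG(0) cells their Dox effects were, in the same order, -0.29, -0.44, 0.49, -0.17 and 0.07. For BAMBI the CTG(0) arrays with Dox read 8.42, 8.57 and 7.54, so that replicate 3 stood apart. Runs with single arrays left out were not made for the wider list. With Dox in CTG(0) cells 0 of 63 passed limma's threshold (1.18% of all probe sets did), and 9 had an unadjusted p under 0.05, as did 8.39% of all probe sets.

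**Figure D5:**
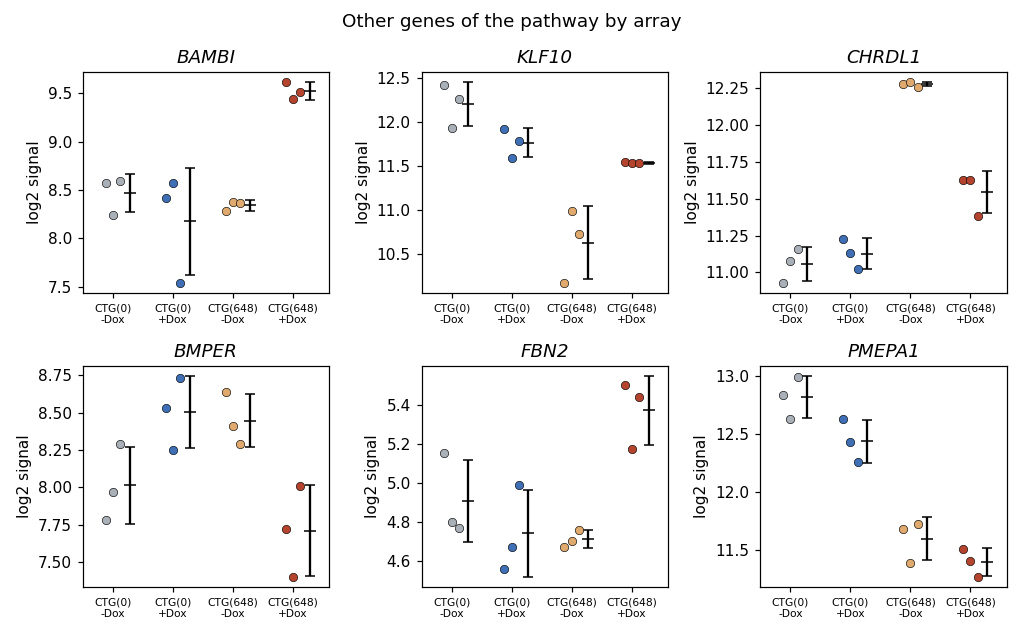
Log2 signal of 6 further genes of the pathway on each of the 12 arrays, with group means and SD (bars, n = 3) beside the points. BAMBI and FBN2 are highest on the Dox-induced CTG(648) arrays, CHRDL1 lies higher on all CTG(648) arrays than on CTG(0) arrays, and PMEPA1 lies lower.

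Between the lines, 18 of the 63 genes were past the threshold without Dox, 5 higher and 13 lower in CTG(648) cells, and 19 with Dox, 6 higher and 13 lower. Of all probe sets 11.7% were past it in each state, and of those with a group mean of at least 5, 20.1% without Dox and 19.5% with it. MSTN, which encodes the ligand myostatin, read 4.57, 4.31 and 4.62 in non-induced CTG(0) cells and 8.95, 9.65 and 9.91 in non-induced CTG(648) cells, a difference of 5.00 (SE 0.22, adjusted p = 1.23e-08), and 4.26 with Dox. TWSG1, a BMP-binding protein, was higher by 1.15 without Dox and 0.89 with it. CHRDL1 was higher by 1.22 without Dox and had 0.42 with it, not past the threshold. FBN1, a fibrillin, was lower with differences of -1.12 without Dox and -1.53 with it. Among the 10 measured target genes of the list, 7 were lower without Dox and none higher, where 6.11% of all probe sets were lower. Markers of glia and fibroblasts differed between the same lines, as given above, and their part in these values was not tested. SNAI2, a transcription factor of epithelial-mesenchymal transition, read 15.89, 15.93 and 16.07 against 13.19, 13.36 and 13.24 (difference -2.70, SE 0.14, adjusted p = 5.97e-08), and HEY1, a transcriptional repressor, differed by -1.71. KLF10 differed by -1.57 and CCN2, a matricellular protein gene induced by TGF-beta, by -1.41. With Dox 4 of the 10 target genes were lower (5.33% of all probe sets), and KLF10 was not among them (-0.23). The median of the 10 targets was -1.10 without Dox and -0.29 with it, beside 0.00 and 0.01 over all probe sets.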

How the data were processed

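The authors' deposited values were log2 signals with 2 decimals from 12 Clariom D arrays. RMA background correction and quantile normalization are named in their methods, and hg38 in the submitters' processing notes beside RMA, with versions not given in the sources used here. Values were used without further normalization. Of 135750 probe sets, 36176 carried 1 gene symbol in the platform annotation, 1119 several and 98455 none. All 12 arrays entered 1 model in limma 3.58.1 in R 4.3.3 over the 36176 probe sets (8 residual and 5.11 prior degrees of freedom), and p-values were adjusted by Benjamini-Hochberg over all of them. The threshold (log2 fold change over 0.5 in size, p under 0.005) follows the methods, read here as an unadjusted p. Data for contrast A were simulated over 36176 probe sets with independent normal noise, and a small subset was changed. Of these, 83% of changes of 1 and 99% of changes of -2 on the log2 scale were recovered. The members' changes in contrast A were all smaller than 1 in size, and recovery of such changes was not simulated.

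Members and lists were chosen with earlier results of these data known. Every array value is given for members past the threshold with Dox or in the interaction and for the 3 members of each role group with the greatest difference past the threshold between the lines. For the wider list, up to 4 genes with the smallest p in each comparison were named, and others after their values were seen. Coordinates and promoters are from RefSeq (GRCh38.p14), with promoters for 42 of 47 members. The number of arrays limits precision.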

Additional observations from a re-analysis of the deposited data

Results flagged for a closer look

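For 5 members the Dox effect differed between the lines by limma's interaction past the threshold, at an unadjusted p under 0.005. Of all probe sets 2.32% were past it. The Dox effect in CTG(648) cells minus that in CTG(0) cells was -1.24 for TGFB1 (adjusted p = 0.0213), -1.39 for BMP6 (adjusted p = 0.0145) and -0.99 for TGFB3 (adjusted p = 0.0994) on the log2 scale. For NOG it was 0.92 (adjusted p = 0.157) and for SMAD9 0.97 (adjusted p = 0.215). The NOG call was lost without any one of 6 arrays and the SMAD9 call without any one of 9. All 3 ligand genes had a fall past the threshold in CTG(648) cells and higher values, not past the threshold, in CTG(0) cells.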

How the results depend on the processing

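Of 35 member results past the threshold, 10 stayed past it under every alternative run, 22 under every array left out, and 0 changed direction under any. In contrast A, 5 members passed, against 3 by Benjamini-Hochberg adjusted p (TGFB1, BMP6, NOG), 3 by the methods' t-test and 0 by that test after adjustment, and 3 to 5 when single arrays were left out. In the interaction, 5 became 2 by adjusted p and 3 to 5 without single arrays. With Dox in CTG(0) cells, 0 became 1 by the t-test at a p under 0.05 (TGFBR3), 1 with an intensity trend in the variance (BMP4), and 0 to 1 without single arrays. In contrast B, 14 became 7 by the t-test and 5 by it after adjustment, with 10 to 14 without single arrays. Between the non-induced lines, 11 became 6 by the t-test and 4 after adjustment, with 7 to 11 without single arrays, the 7 without replicate 3 of CTG(0). The cause of these shifts was not tested.

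Same-numbered arrays did not deviate together (correlations -0.08 to 0.07, 0 of 18 over 0.1). These correlations cannot settle whether same-numbered cultures were handled together, and the labels do not say. With the replicate number as a block, 4 members passed in contrast A, 11 in contrast B, 0 with Dox in CTG(0) cells, 11 between the non-induced lines and 4 in the interaction. A prior over all probe sets, chosen after seeing the data, gave 4, 11, 0, 11 and 4, and ended the calls of SMAD9 in contrast A and the interaction and of SMAD6, NOG and ID1 in contrast B. It lowered the calls of contrast A over all probe sets from 875 to 652. Centring each array on its median ended the calls of SMAD9 in contrast A and the interaction and of NOG and SMAD6 in contrast B, an intensity trend those of NOG in contrast B and the interaction, and repeated quantile normalization that of TGFBI in contrast B. A fit on the arrays of the contrast alone ended those of NOG and ID1 in contrast B and of ACVR1, INHBA and SMURF2 between the non-induced lines. The t-test and a fit on single groups were not run for the interaction. Signals near the array median limit what can be seen for 8 dim members.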
